A study of Mus musculus with 18 samples.

Results

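Clone 22 and clone 15 of the mouse pancreatic tumour line 2838 were compared. Both clones are labelled Mcu wild type and carry an empty vector, so the comparison measures how far cloned cells of a single line differ without editing of Mcu. The clones were chosen by their labels, and the libraries used of clone 22 also by their values. Clone 15 entered with 3 libraries and clone 22 with replicates 1 and 2, which makes 5 of the 18 libraries of the series. Replicate 3 of clone 22 is given beside them as a check and entered no test in the main comparison, because it held low values for long transcripts.

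Line 2838 came from a pancreatic tumour of a KPCY mouse, whose alleles include Trp53 R172H behind a lox-stop-lox cassette, Pdx1-Cre and a Yfp reporter at R26. The Cre is driven by the Pdx1 promoter, which is active in the developing pancreas. The cells were untreated cultures in DMEM with serum, and polyA RNA was sequenced. Each group is 1 clone, so a difference between clones 22 and 15 cannot be extended to clones in general. The labels do not say whether the libraries of a clone came from separate cultures, so p-values may measure technical spread only. The other clones of the line, 17 and 42, are labelled Mcu CRISPR knockout, with 3 libraries each, and all 12 libraries of line 2838 carry the same batch label.

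A clone descends from a single cell and fixes the state that cell had. Tumour cells of a single line can differ in copy number, in silenced genes and in programmes that their tissue of origin keeps available. Pancreatic duct cells and the tumours that resemble them express keratins 8, 18 and 19 and the adhesion protein E-cadherin (Cdh1). They can also make secreted proteins better known from liver, among them complement components, iron carriers and acute-phase proteins, and mucus peptides known from stomach. Complement is a cascade of plasma proteases around the central component C3, in which factor B (Cfb) helps to amplify cleavage of C3 and factor I (Cfi) ends it.

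The cell type label was checked first. In the 6 libraries of clones 15 and 22, Krt8 lay between 1537 and 1895 TPM (a level divided by transcript length and scaled to a fixed total in each library), and Cdh1 between 224 and 576 TPM. Epcam, an epithelial surface protein, was at 0 to 0.424 TPM and Pdx1 at 1.03 to 1.72 TPM, so these 2 markers were low or near absent. Of the markers of other cell types, 15 of 17 for leukocytes, 13 of 14 for fibroblasts, all 10 for endothelium and 17 of 18 for acinar and islet cells stayed under 1 TPM in each of the 6 libraries. The summed leukocyte markers came to 119 to 165 TPM in clone 15 and 187 to 198 TPM in clone 22, carried by Cd14 and Cd68, while Ptprc, which defines leukocytes, was at most 0.0382 TPM. The summed fibroblast markers came to at most 2.08 TPM, with Dcn, Lum and Col1a2 listed at 0, the endothelial markers to at most 0.89 TPM, and the acinar and islet markers to 22.0 to 29.3 TPM in clone 15 and 16.6 to 24.6 TPM in clone 22, nearly all Cela1.

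Some libraries stood apart. Replicate 3 of clone 22 correlated with the other libraries of its clone at r of 0.937 and 0.941 across genes, against 0.991 between replicates 1 and 2. Against the mean of those replicates its median log2 difference was -0.0526 in the 3713 genes with the shortest transcripts, -0.624 in the 3710 of middle length and -1.15 in the 3711 with the longest. Replicate 1 of clone 15 correlated at 0.968 and 0.971 with its own clone, below the 0.988 between replicates 2 and 3 and below the 0.978 to 0.982 between those replicates and replicates 1 and 2 of clone 22. Mitochondrially encoded genes took 11.4% of its TPM, against 8.37% and 8.97% in the other libraries of clone 15 and 7.69% to 8.27% in clone 22 replicates 1 and 2. The number of calls, the counts of the main gene lists, the chromosome medians and the counts of clone pairs are therefore also given without it.

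Mcu, which encodes the pore of the mitochondrial calcium uniporter, was measured at 68.4, 81.2 and 76.0 TPM in clone 15 and at 94.4 and 96.3 TPM in clone 22. With 59.3 TPM, replicate 3 of clone 22 lay below all of clone 15, so the clones overlapped once it was added. The log2(TPM + 1) difference, clone 22 minus clone 15, was 0.34 ± 0.11 (SE) with an adjusted p of 0.223. The libraries labelled knockout clone 42 had 10.5 to 12.3 TPM and those labelled knockout clone 17 had 113 to 122 TPM, above every library of the clones labelled wild type. Of the 7 uniporter genes, Mcu included, none passed the test in 5 libraries, and all 7 differences were positive, with a median of 0.31. With the spread estimated over 11 libraries of 4 clones, 2 of the 7 were called higher, against 4.3% of all genes tested, namely Mcu (adjusted p = 0.0477) and Micu2 (adjusted p = 0.00156). Micu2, a gatekeeping subunit of the channel, came nearest, with 21.4, 30.0 and 26.0 TPM in clone 15 and 50.3 and 52.9 TPM in clone 22 (difference 0.99 ± 0.15, adjusted p = 0.0570, and 0.0301 without replicate 1 of clone 15). Its 33.5 TPM in replicate 3 of clone 22 also lay above all of clone 15. Other members were Mcub, a pore-like subunit (0.61), Smdt1, which links pore and gatekeepers (0.31), Mcur1 (0.28) and Micu3 (0.12), with adjusted p between 0.219 and 0.750.

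Of 11335 genes with at least 1 TPM in 3 or more of the 5 libraries, 48 passed the test (limma on log2(TPM + 1), Benjamini-Hochberg adjusted p under 0.05). Of these, 10 genes were higher in clone 22, which is 0.0882% of the genes tested, and 38 were lower, which is 0.335%. The differences of the 10 ran from 0.87 to 1.94 and those of the 38 from -4.90 to -0.70 on the log2 scale. Over all genes tested the median difference was 0.06 and the median absolute difference 0.165, so most genes lay close together. No value of any of the 48 genes overlapped between the clones in the 5 libraries. With so few libraries this largely follows from the call and is no support. With replicate 3 of clone 22 added, 44 of the 48 genes, 6 higher and 38 lower, still did not overlap. Among all genes tested, 6.03% were higher and 10.9% were lower without overlap in the 6 libraries. The 48 genes were already apart in the 5 libraries, so their count cannot be set against these shares. Since replicate 3 of clone 22 ran low in long transcripts, it is a weak check on lower genes with long transcripts. Of the 38 genes, 7 passed this filter only through clone 15, since both libraries used of clone 22 were under 1 TPM. No gene could pass it through clone 22 alone, so these 7 could be called only as lower, and their p-values are no support. They include Rnf130, Serpina1b, Gm17330, Gm49111, Pkdcc and Spaca7, and the other 31 genes had at least 1 TPM in a library of each clone. Past an absolute log2 difference of 2 lay 13 genes lower and 11 genes higher in clone 22, and none of those 11 was free of overlap in the 6 libraries.

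The number of calls rests on few libraries. Without replicate 1 of clone 15, 108 genes were higher and 96 lower, which is 0.969% and 0.862% of 11141 genes. These include all 41 of the 48 genes that still had a value, 10 higher and 31 lower, while the 7 that had passed only through clone 15 failed the filter. Without replicate 2 of clone 15, 1 and 6 were called, without replicate 3 none (limma, with 1012 higher and 484 lower at an unadjusted p under 0.05), and without replicate 1 or 2 of clone 22 none higher and 1 lower (344 and 414 higher at an unadjusted p under 0.05). With replicate 3 of clone 22 included, none was higher and 1 was lower (233 and 486 at an unadjusted p under 0.05). When the spread was estimated over the 11 libraries of all 4 clones, with replicate 3 of clone 22 left out, 487 genes were higher, which is 4.3%, and 317 lower, which is 2.8%, and all 48 genes were among them. No sign among the 48 genes changed in any of these settings in which the gene had a value. None of the 48 overlapped between the clones in the 5 libraries, so leaving out a library or sharing the spread could not change a sign. The kept signs are no support there. Exact permutation of 2 against 3 libraries has 10 arrangements and cannot give a two-sided p under 0.2, so no single gene was tested that way.

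**Figure D1:**
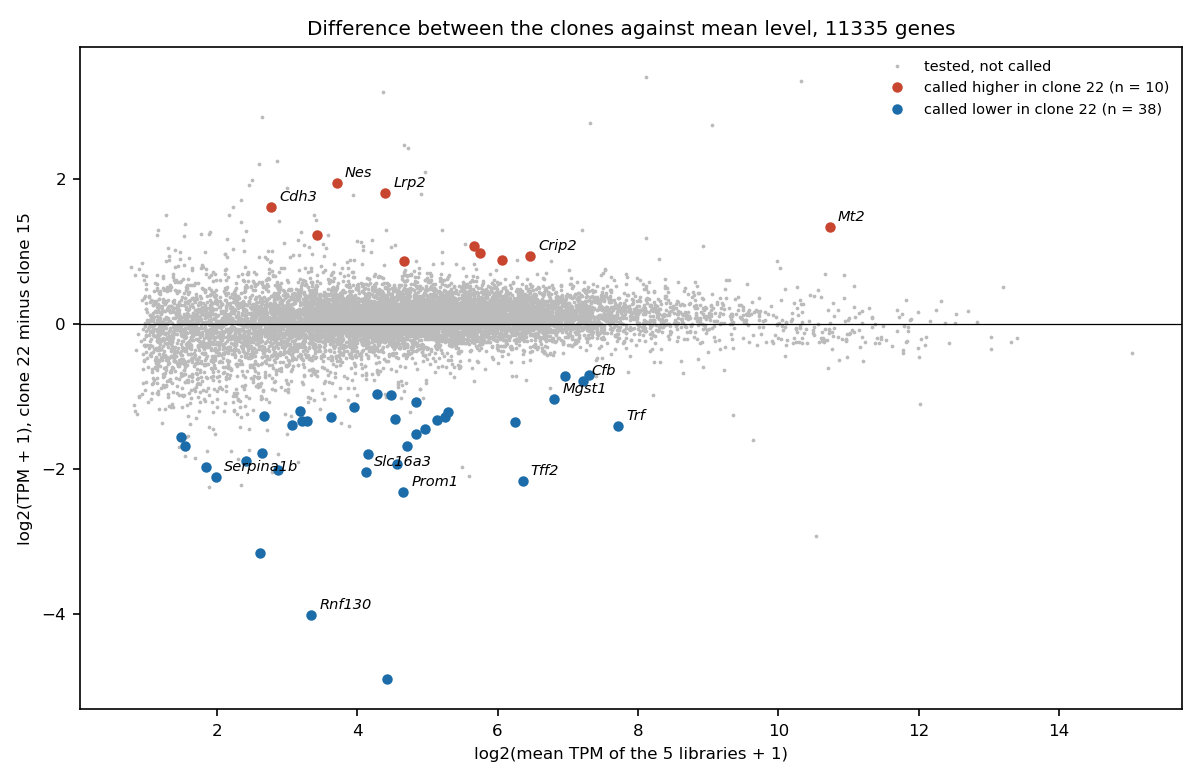
Each point is 1 of the 11335 genes tested, with the log2 of the mean TPM of the 5 libraries on the horizontal axis and the difference in log2(TPM + 1), clone 22 minus clone 15, on the vertical axis. The 38 genes called lower (blue) reach further from 0 than the 10 called higher (red), and large grey points are genes whose libraries of a clone disagreed. The farthest blue points, Gm17330 (-4.90), Rnf130 (-4.02) and Gm49111 (-3.16), passed the filter only through clone 15. No gene could pass it through clone 22 alone. The next blue point is Prom1 at -2.33, and the farthest red point is Nes at 1.94.

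**Figure D2:**
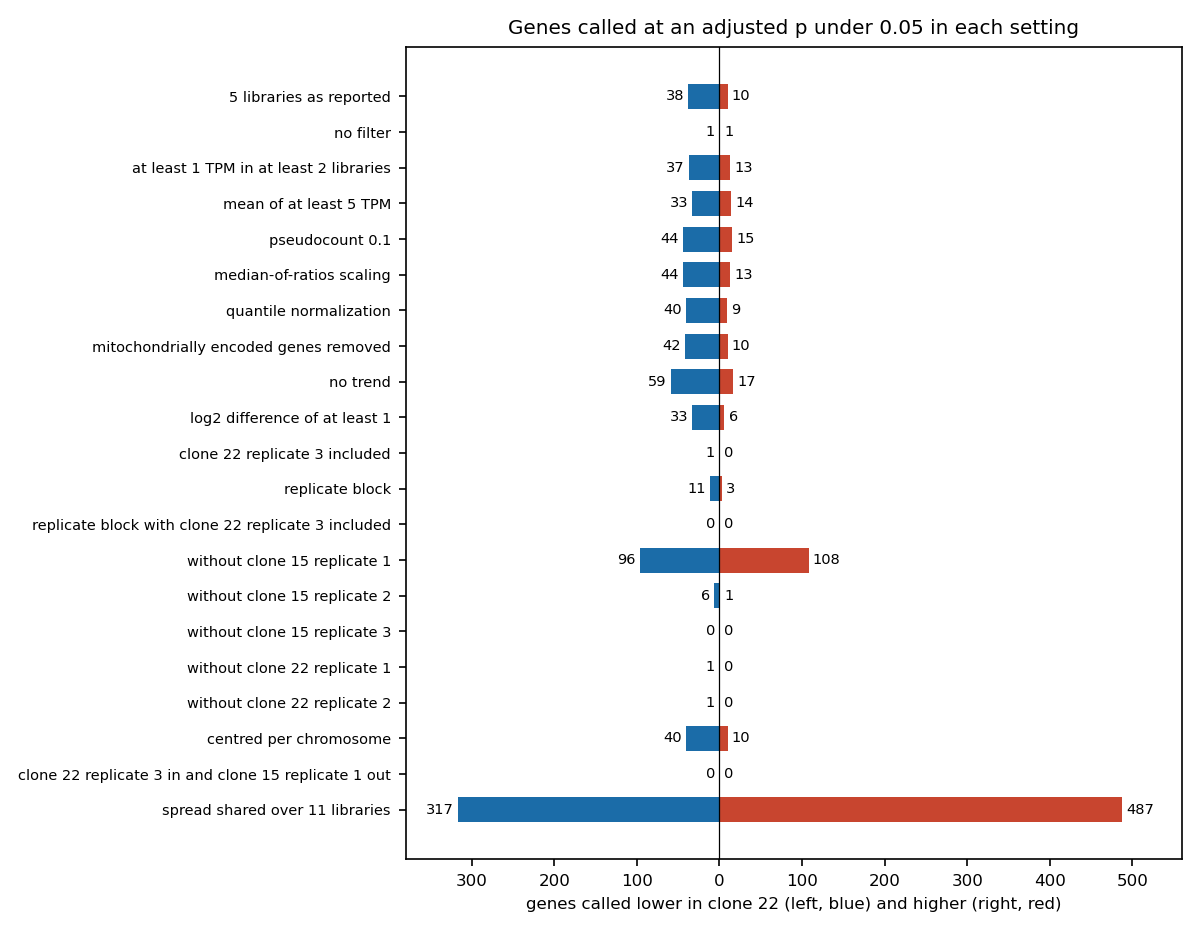
Bars give the number of genes called lower (left, blue) and higher (right, red) in clone 22 in each setting, at an adjusted p under 0.05. The counts run from 0 to 487, and most settings that keep the same 5 libraries stay near 10 and 38.

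Of the 29 genes on the list of complement and acute-phase proteins, 17 could be tested, and 6 of them, C3, Cfb, Cfi, Trf, Lcn2 and Gc, were called lower in clone 22 and none higher. This is 35.3% of the 17, against 0.335% of all genes tested, and 11 of the 17 did not pass. With the spread of 11 libraries, 10 of the 17 were called lower, or 58.8% against 2.8%, and none higher. At an unadjusted p under 0.05 in the 5 libraries 11 were lower, where 5.88% of all genes were, and none higher (limma). Without replicate 1 of clone 15, 9 of 16 were called lower, or 56.2% against 0.862%, and none higher. The median difference of the 17 was -0.61, 16 of the 17 differences were negative, and 12 of the 17 lay lower without overlap in the 6 libraries, against 10.9% of all genes. None of the 17 had passed the filter only through clone 15. In bulk RNA, fewer cells that make a transcript and less of it in each cell cannot be told apart.

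C3, on which all complement pathways converge, had 41.7, 32.7 and 49.3 TPM in clone 15 and 13.6 and 14.8 TPM in clone 22. With 7.56 TPM in replicate 3, every library of clone 22 lay below every library of clone 15. The longest transcript of C3 has 5136 bases, a length at which replicate 3 ran low, so its value there is a weak check. The difference was -1.46 ± 0.18 (adjusted p = 0.0361). Cfb, which forms the amplifying convertase with C3, had 178, 169 and 189 TPM in clone 15 and 96.0 and 109 TPM in clone 22, with 105 TPM in replicate 3. Its difference was smaller, -0.80 ± 0.10 (adjusted p = 0.0446), on a higher level. Cfi, the protease that inactivates the C3 fragment, had 10.4, 10.6 and 12.8 TPM in clone 15 against 3.42 and 4.24 TPM in clone 22 and 2.15 TPM in its replicate 3 (-1.35 ± 0.16, adjusted p = 0.0361). An activating component and a regulator of the cascade were thus both lower.

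Trf, the gene of the plasma iron carrier transferrin, had 241, 272 and 324 TPM in clone 15 and 95.8 and 112 TPM in clone 22. Its 159 TPM in replicate 3 of clone 22 was the highest of that clone and still below all of clone 15 (-1.41 ± 0.15, adjusted p = 0.0312). Lcn2, whose protein binds bacterial iron carriers, had 35.7, 32.2 and 29.1 TPM in clone 15 and 5.56 and 10.5 TPM in clone 22, with 14.9 TPM in replicate 3 (-1.94 ± 0.24, adjusted p = 0.0371). Gc, which encodes the vitamin D-binding protein, had 10.6, 9.30 and 10.6 TPM in clone 15 and 2.69 and 3.82 TPM in clone 22, with 1.58 TPM in replicate 3 (-1.41 ± 0.17, adjusted p = 0.0361). The clone 22 means of these iron and vitamin carriers were thus 2.69-fold, 4.03-fold and 3.13-fold lower.

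The members that did not pass were Lbp, C1ra, C1s1, Clu, Cp, C2, Cd55, C4b, Apob, Apoe and Hp. Lbp, which carries lipopolysaccharide, had a mean of 90.0 TPM in clone 15 and 54.1 TPM in clone 22 (adjusted p = 0.0785). C1ra, a protease of the classical pathway, had 20.0 and 11.3 TPM (adjusted p = 0.0758). Clu, the abundant chaperone clusterin, had 4599 and 3331 TPM (adjusted p = 0.229). Hp, the haemoglobin-binding haptoglobin, had the only positive difference, 0.33, with an adjusted p of 0.505. Of these 11, Lbp, C1ra, Clu and Cp were called lower with the spread of 11 libraries.

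The same list lay lower still in the clones labelled knockout. Set against the clone 15 mean, its median was -0.787 and -0.588 in replicates 1 and 2 of clone 22 and -0.799 in replicate 3, whose median over all genes was itself -0.557. It was -1.84 to -1.70 in the 3 libraries of clone 17 and -1.32 to -1.08 in those of clone 42, and -0.076 to 0.077 in those of clone 15. These values share the clone 15 mean. C3 was at 1.48 to 1.75 TPM in clone 17 and 1.75 to 2.53 TPM in clone 42, and Trf at 31.6 to 39.4 and 16 to 23.5 TPM. By the list's median, clone 15 was thus the highest of the 4 clones.

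**Figure D3:**
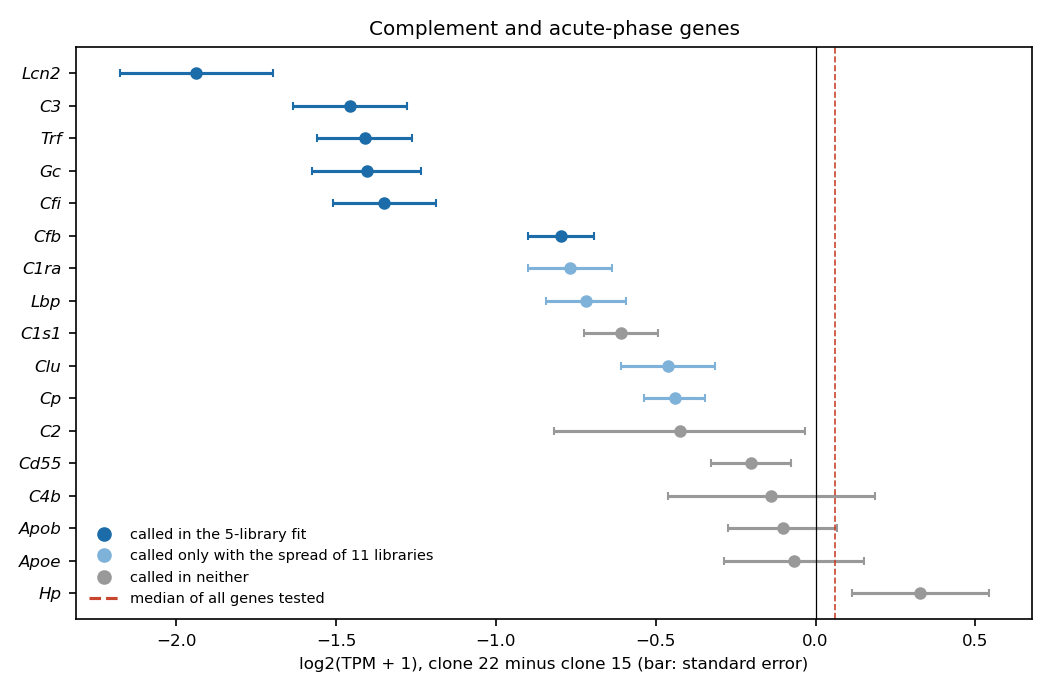
Points give the difference in log2(TPM + 1), clone 22 minus clone 15, of the 17 complement and acute-phase genes tested, with bars for the standard error, and the dashed line is the median of all genes tested, 0.06. The 6 genes in dark blue, from Lcn2 to Cfb, passed the test in 5 libraries, those in light blue passed only with the spread of 11 libraries, and Hp alone lies right of 0.

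Promoters of liver-type genes often hold sites of the factors HNF4 and C/EBP. Windows from 250 bases before to 50 bases after the start site (RefSeq, GRCm38.p6) were available for 9 of the 17 list members and for 26 of the 38 genes called lower, and were searched on both strands for TTGCGNAA (C/EBP) and CAAAGTCCA (an HNF4 direct repeat). The motifs were chosen after the expression values were seen. Among the 26, the first was found in C3 and Ms4a4d and the second in none. Over all 32851 windows of this length the shares were 0.798% and 0.475%. Over the 8925 genes tested that have a window, 1.52% and 0.549% held a match. A match describes letters only, and with so few matches nothing was read from the shares. The promoter of C3 is printed because this gene is central to the list, was called lower and holds a match, which is in capitals, on the strand of the gene. It lies at chr17:57228087-57228386 (minus strand, match 45 to 38 bases before the start), and no match of the other motif overlapped it.
C3: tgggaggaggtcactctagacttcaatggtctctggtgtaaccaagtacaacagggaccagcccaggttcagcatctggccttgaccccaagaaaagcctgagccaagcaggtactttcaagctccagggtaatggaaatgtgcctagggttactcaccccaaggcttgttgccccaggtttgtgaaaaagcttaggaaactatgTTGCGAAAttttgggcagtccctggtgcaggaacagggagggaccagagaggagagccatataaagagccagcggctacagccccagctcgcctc

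The levels of genes encoding such factors were read beside the motifs. Cebpb had 114, 124 and 102 TPM in clone 15 and 106 and 115 TPM in clone 22 (difference -0.03 ± 0.11, adjusted p = 0.928), so the clones overlapped. Cebpa, at low levels, had 2.99, 2.07 and 2.97 TPM in clone 15 and 1.46 and 2.27 TPM in clone 22 (-0.36 ± 0.23, adjusted p = 0.486). For Cebpd the difference was -0.10 ± 0.19 (adjusted p = 0.840). Hnf4a had 316, 482 and 534 TPM against 556 and 539 TPM (0.34 ± 0.22, adjusted p = 0.510). In replicate 3 of clone 22 Hnf4a was at 95.5 TPM, below all of clone 15.

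A few genes called lower that encode plasma or iron-related proteins stand on no list that was counted and were picked after their values were seen. Habp2, a hyaluronan-binding serine protease of plasma, had 6.58, 7.33 and 9.42 TPM in clone 15 and 1.47 and 1.58 TPM in clone 22, with 0.657 TPM in replicate 3 (-1.78 ± 0.19, adjusted p = 0.0312). Cpn1, the catalytic subunit of carboxypeptidase N, had 9.81, 10.6 and 12 TPM against 4.41 and 3.77 TPM, with 5.67 TPM in replicate 3 (-1.21 ± 0.15, adjusted p = 0.0372). Serpina1b, a copy of the alpha-1 antitrypsin gene, had 4.31 to 4.94 TPM in clone 15 and 0.286 to 0.411 TPM in the 3 libraries of clone 22. It was tested only because of its level in clone 15, so its p is not given, and near-identical copies share its reads and make its level uncertain. Tfr2, a transferrin receptor, had 13.2 to 16.4 TPM in clone 15 and 5.05 to 7.15 TPM in clone 22 (-1.28 ± 0.16, adjusted p = 0.0361). None of these genes overlapped between the clones.

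Rnf130 was listed at 0 throughout clone 22. This gene encodes a membrane-bound ubiquitin ligase and spans chr11:50025346-50104758 on the plus strand (mm10). It had 15.1, 16.7 and 14.1 TPM in clone 15 and 0 in all 3 libraries of clone 22, replicate 3 included. Because clone 22 is listed at 0, no fold is given. It passed the filter only through clone 15, so the test in 5 libraries had to find it lower and its p there is not given. When no filter was applied and 17459 genes were tested, its adjusted p was 0.0295 (limma). A gene high in either clone can pass a filter of 2 libraries, but Rnf130 again passed it through clone 15 alone, so that p is not given either. The 5 tested genes on each side of it, from Mgat1 to Maml1, had differences between -0.20 and 0.74, with adjusted p between 0.261 and 0.990. The next gene upstream, the kinase gene Mapk9, had 23.7 TPM on average in clone 15 and 20.2 TPM in clone 22, and the next downstream, Tbc1d9b, had 20.1 and 18.2 TPM. None of these neighbours passed the test. In the clones labelled knockout, Rnf130 was at 0.622 to 1.20 TPM in clone 17 and at 12.1 to 13.3 TPM in clone 42, and in line 1151 it was at 32.2 to 44.0 TPM in all 6 libraries.

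The pseudogenes Gm17330 and Gm49111 were likewise listed at 0 in replicates 1 and 2 of clone 22, after 11.7 to 49.1 and 5.19 to 13.8 TPM in clone 15. They too passed the filter only through clone 15. They share sequence with other genes, Gm49111 had 2.25 TPM in replicate 3 of clone 22, and both are reported as uncertain.

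**Figure D4:**
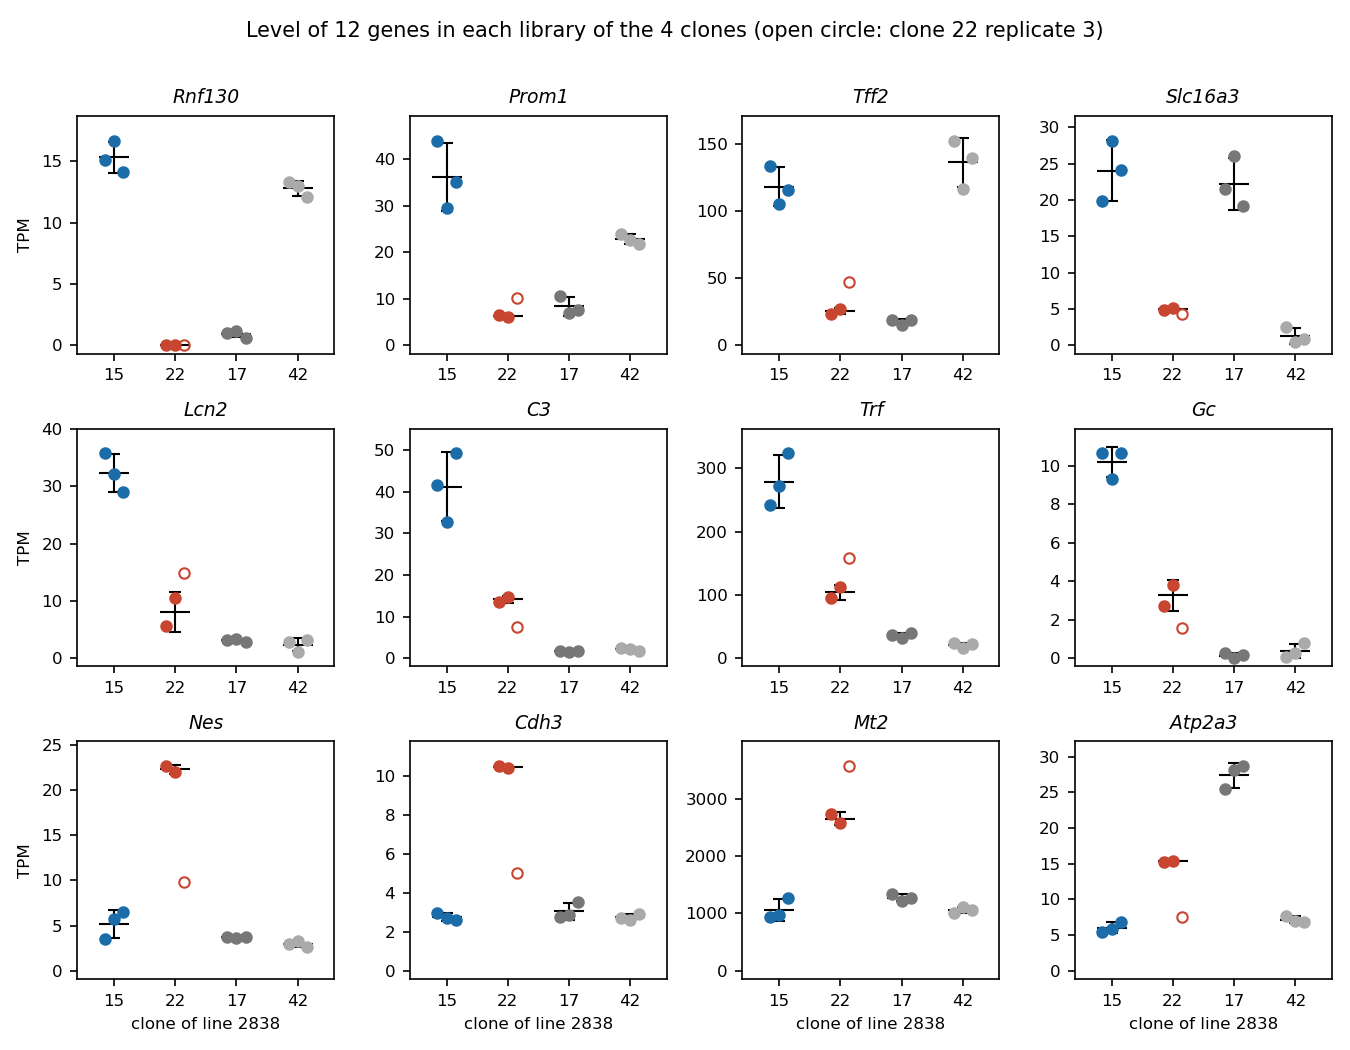
Points give the TPM of 12 genes in each library of clones 15, 22, 17 and 42, with horizontal lines for the mean and bars for the SD (3 libraries, or replicates 1 and 2 in clone 22), and the open circle is replicate 3 of clone 22. The first 8 panels show genes called lower and the last 4 genes called higher in clone 22. All 12 were picked from called genes without overlap between clones 15 and 22, so the lack of overlap in the panels is no support.

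A mucus peptide and a progenitor surface protein were lower in clone 22. Tff2, a trefoil peptide of gastric mucus, had 134, 105 and 115 TPM in clone 15 and 23.7 and 26.9 TPM in clone 22, which is 4.66-fold lower in the mean. The 46.8 TPM of replicate 3 was the highest of clone 22 and still under all of clone 15 (-2.17 ± 0.13, adjusted p = 0.00889). Clone 17 had 15.4 to 19.1 TPM and clone 42 had 116 to 152 TPM. Prom1, the surface glycoprotein CD133, had 44.1, 29.5 and 35.1 TPM in clone 15 and 6.48 and 6.16 TPM in clone 22, with 10.2 TPM in replicate 3 (-2.33 ± 0.18, adjusted p = 0.0161). Of the 24 tested genes of the classical subtype and gastric list, Tff2 was the only one called in 5 libraries. The list's median difference was 0.01, and 12 of the 24 were positive. Its neighbour peptide Tff1 had a mean of 194 TPM in clone 15 and 206 TPM in clone 22 (adjusted p = 0.817).

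Genes of duct identity gave a mixed picture. Hhex, a homeobox factor of the embryonic foregut, had 47.1, 46.4 and 53.1 TPM in clone 15 and 19.3 and 19.6 TPM in clone 22, with 12.9 TPM in replicate 3 (-1.28 ± 0.11, adjusted p = 0.0176). Sox9, the factor that marks duct cells, had 15.9, 16.3 and 20.3 TPM in clone 15 and 8.03 and 7.70 TPM in clone 22. Its difference of -1.05 ± 0.15 missed the threshold (adjusted p = 0.0521) and passed it with the spread of 11 libraries (adjusted p = 0.00124). Krt19, by contrast, had 740, 730 and 782 TPM in clone 15 and 826 and 815 TPM in clone 22 (0.13 ± 0.10, adjusted p = 0.563). Of the 9 tested genes of the tumour model and duct list, none passed the test, and their median difference was 0.15.

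RNA of a lactate transporter and of a gene known from hypoxia was lower in clone 22. Slc16a3, the lactate exporter MCT4, had 19.8, 28.2 and 24.1 TPM in clone 15 and 4.91 and 5.09 TPM in clone 22, with 4.29 TPM in replicate 3 (-2.05 ± 0.17, adjusted p = 0.0176). Clone 17 had 19.1 to 26.1 TPM and clone 42 had 0.514 to 2.50 TPM. Bnip3, a mitophagy receptor induced by low oxygen, had 47.5, 45.5 and 56.4 TPM in clone 15 and 19.6 and 21.9 TPM in clone 22, with 15.5 TPM in replicate 3 (-1.22 ± 0.13, adjusted p = 0.0312). Of the 31 tested genes of glycolysis and hypoxia, these 2 were called lower, or 6.45% against 0.335% of all genes tested, and none higher. With the spread of 11 libraries, 8 were lower, or 25.8% against 2.8%, and 1 was higher, and without replicate 1 of clone 15, 3 of 29 were lower, or 10.3% against 0.862%. The median of the 31 was -0.23, and 2 of them had passed the filter only through clone 15. Some glycolytic enzymes lay close. Gapdh had a mean of 3742 TPM in clone 15 and 3587 TPM in clone 22 (adjusted p = 0.916) and Ldha 1251 and 1183 TPM (adjusted p = 0.771). The median of this list against the clone 15 mean was -0.226 in replicate 1 of clone 15 itself, as low as the -0.216 and -0.210 of clone 22.

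Single enzymes and a carrier protein were also among the 38 genes, picked for their calls and not as a group. Fabp5, a fatty acid-binding protein, had 96.5, 94.6 and 106 TPM in clone 15 and 42.4 and 34.3 TPM in clone 22, with 48.2 TPM in replicate 3 (-1.35 ± 0.12, adjusted p = 0.0205). Entpd2, which splits extracellular nucleotides, had 23.5, 23.9 and 24.5 TPM in clone 15 and 5.74 and 6.71 TPM in clone 22 (-1.79 ± 0.12, adjusted p = 0.0114). In clone 17 Entpd2 was at 21.3 to 22.9 TPM, near clone 15. Mgst1, a membrane glutathione transferase, had means of 140 and 68.0 TPM, Adh7, an alcohol and retinol dehydrogenase, 18.8 and 7.89 TPM, and Ddah1, which degrades methylated arginine, 35.3 and 16.1 TPM.

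At the cell surface and in signalling, Cmtm8, a member of the MARVEL family of membrane proteins, had 8.44, 10.2 and 9.84 TPM in clone 15 and 1.55 and 1.61 TPM in clone 22 (-2.02 ± 0.16, adjusted p = 0.0161). Gpm6b, a proteolipid of the plasma membrane, had 42.5, 38.1 and 33.0 TPM against 12 and 13 TPM (-1.52 ± 0.14, adjusted p = 0.0205). Pdzk1ip1, a small membrane protein, had 5.63, 5.96 and 8.11 TPM against 1.05 and 0.985 TPM (-1.89 ± 0.20, adjusted p = 0.0312). These genes had 1.34, 5.23 and 0.547 TPM in replicate 3 of clone 22, so none overlapped with clone 15. For Gpm6b, whose longest transcript has 4764 bases, that replicate is a weak check, since it ran low in long transcripts. Arap3, which inactivates small GTPases, had a mean of 35.4 TPM in clone 15 and 10.1 TPM in clone 22, and Celsr1, a cadherin of planar cell polarity, 23.3 and 11.4 TPM. Poglut1, which adds glucose to Notch receptors, had 45.3 and 17.3 TPM, although chromosome 16, where it lies, was among those with higher medians in replicates 1 and 2 of clone 22. Further genes called lower were Pkdcc, Ms4a4d, Dhx40, Cxxc5, Spaca7, Ly6g2 and Aplp2, with differences from -1.97 to -0.70. Ly6g2 belongs to a family of close copies and is uncertain.

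The genes called higher in clone 22 were fewer in the 5-library test. They were more without replicate 1 of clone 15 (108 against 96) and with the spread of 11 libraries (487 against 317). Nes, which encodes the intermediate filament nestin, had 3.48, 5.73 and 6.47 TPM in clone 15 and 22.7 and 22.0 TPM in clone 22, a 4.27-fold higher mean. The 9.88 TPM of replicate 3 also lay above all of clone 15 (1.94 ± 0.23, adjusted p = 0.0361). Cdh3, the epithelial adhesion protein P-cadherin, had 3.00, 2.71 and 2.63 TPM in clone 15 and 10.5 and 10.5 TPM in clone 22, with 5.05 TPM in replicate 3 (1.61 ± 0.15, adjusted p = 0.0205). In the clones labelled knockout Nes was at 2.67 to 3.76 TPM, near or below clone 15, and Cdh3 at 2.64 to 3.54 TPM. Every library of clone 22 thus lay above the libraries of the other 3 clones for Nes and Cdh3.

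Mt2, a metallothionein that binds zinc and copper, had 940, 969 and 1275 TPM in clone 15 and 2731 and 2573 TPM in clone 22, with 3568 TPM in replicate 3 (1.33 ± 0.16, adjusted p = 0.0361). It was the most abundant of the 48 genes in clone 22. Its paralogue Mt1, named after its values were seen, had 1439, 1142 and 1354 TPM against 2271 and 1926 TPM and did not pass (0.68 ± 0.15, adjusted p = 0.126). Mt1 was called with the spread of 11 libraries (adjusted p = 0.00516), and its 3258 TPM in replicate 3 of clone 22 also lay above clone 15.

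Atp2a3, a calcium pump of the endoplasmic reticulum, had 5.43, 5.82 and 6.88 TPM in clone 15 and 15.3 and 15.4 TPM in clone 22, with 7.5 TPM in replicate 3 (1.22 ± 0.14, adjusted p = 0.0361). Clone 17 had 25.4 to 28.7 TPM and clone 42 had 6.79 to 7.67 TPM. It was the only gene called among 26 tested genes of calcium transport at the endoplasmic reticulum and plasma membrane, whose median difference was 0.12. Pllp, the myelin and epithelial membrane protein plasmolipin, had 36.6, 30.7 and 34.9 TPM against 77.2 and 68.5 TPM (1.08 ± 0.12, adjusted p = 0.0361), and Crip2, a LIM domain protein, had 67.1, 59.0 and 65.9 TPM against 121 and 124 TPM (0.93 ± 0.10, adjusted p = 0.0315). In replicate 3 of clone 22 they had 64.7 and 158 TPM, again above clone 15.

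Lrp2, the endocytic receptor megalin, had 9.68, 8.66 and 10.3 TPM in clone 15 and 42.3 and 29.8 TPM in clone 22 (1.80 ± 0.17, adjusted p = 0.0252). Replicate 3 of clone 22 had 7.75 TPM, below clone 15, and the longest transcript of Lrp2 has 15460 bases. Scamp5, Slco4a1 and Fmnl1 had differences of 0.97, 0.88 and 0.87 in the 5 libraries, and overlapped as well once replicate 3 of clone 22 was added. The higher calls of these 4 genes therefore rest on replicates 1 and 2 of clone 22.

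Of 24 tested genes of epithelial junctions and keratins, Cdh3 alone was called in 5 libraries, the median was 0.20 and 18 of the 24 were positive. With the spread of 11 libraries 6 were called higher, or 25% against 4.3% of all genes tested, and 1 lower, and without replicate 1 of clone 15, 4 of 23 were higher, or 17.4% against 0.969%, and 1 lower. Cdh1 had 383, 343 and 397 TPM in clone 15 and 576 and 535 TPM in clone 22 (0.57 ± 0.11, adjusted p = 0.0941), and passed with the spread of 11 libraries (adjusted p = 0.00776) and without replicate 1 of clone 15 (0.0476). Cdh1 lies on chromosome 8, and after centring per chromosome its difference was smaller, 0.32 ± 0.12 (limma, adjusted p = 0.321). Its 224 TPM in replicate 3 of clone 22 lay below clone 15, so the clones overlapped. Of 15 tested mesenchymal genes, Sparc alone was called in 5 libraries, as lower, or 6.67% against 0.335% of all genes tested. With the spread of 11 libraries 2 were higher and 3 lower, or 13.3% and 20% against 4.3% and 2.8%. Sparc, a secreted matrix protein, had 146, 143 and 151 TPM in clone 15 and 84.0 and 93.9 TPM in clone 22, with 75.9 TPM in replicate 3 (-0.72 ± 0.10, adjusted p = 0.0468). Fn1, fibronectin, had 201, 178 and 200 TPM against 117 and 118 TPM and missed the threshold (-0.71 ± 0.10, adjusted p = 0.0521). It passed with the spread of 11 libraries (adjusted p = 0.0435), without replicate 1 of clone 15 (0.0301), after quantile normalization (0.0379) and after centring per chromosome (0.0401). Vim, the filament protein vimentin, had 1892, 1638 and 1761 TPM against 2342 and 2147 TPM (0.35 ± 0.12, adjusted p = 0.262). Cdh2 (0.36), Snai2 (-0.19) and Zeb1 (-0.02) had adjusted p of 0.189, 0.716 and 0.974, and Cdh2 passed with the spread of 11 libraries (adjusted p = 0.0312).

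Cell cycle genes showed many small positive differences. Of 34 tested genes of the G2 and M phases, 33 were positive with a median of 0.34, and none passed the test (limma). At an unadjusted p under 0.05 there were 9, where 9.48% of all genes tested were higher, and 2 were called with the spread of 11 libraries, or 5.88% against 4.3%. The median of this list against the clone 15 mean was 0.253, -0.347 and 0.041 in clone 15, 0.530 and 0.173 in replicates 1 and 2 of clone 22 and -0.341 in replicate 3. The libraries of each clone thus differed by as much as the clones did. The 53 tested genes of nuclear oxidative phosphorylation subunits had a median of 0.12 and none was called, and the 13 mitochondrially encoded messenger RNAs had a median of -0.25 with none called (limma; 2 and 0 at an unadjusted p under 0.05). The 17 housekeeping genes had a median of 0.01 and 0 calls (limma; 1 at an unadjusted p under 0.05).

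Differences also followed chromosomes. Genes on chromosome 8 had a median difference of 0.22, with 82.9% of 639 genes positive, and genes on chromosome 16 had a median of 0.17, with 78.3% of 351 genes positive. Chromosome 6 had a median of -0.07, with 37.7% of 517 genes positive, while the other 17 chromosomes had medians between 0.01 and 0.11. Genes of a chromosome are not replicates, and these values are descriptions without a test. Without replicate 1 of clone 15 the medians of chromosomes 8, 16 and 6 were 0.20, 0.15 and -0.09. Chromosome 8 holds 639 of the 11335 genes tested. Of the 10 genes called higher, 3 lie on it, namely Mt2 (chr8:94172664-94173568), Pllp (chr8:94674894-94696278) and Cdh3 (chr8:106510891-106557297, mm10). Of the 38 genes called lower, 1 lies there, Spaca7. With the spread of 11 libraries, 107 of the 639 genes on chromosome 8 were called higher, or 16.7%, against 4.3% of all genes tested.

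The shift ran along the whole of chromosome 8. In 12 windows of 50 or more genes in order of position, the median lay between 0.13 and 0.32, with none below 0. The 7 windows of chromosome 16 lay between 0.12 and 0.21, and 8 of the 10 windows of chromosome 6 lay below 0. After each library's median over all genes was subtracted, chromosome 8 stood at 0.162, 0.16 and 0.212 in the 3 libraries of clone 22 and at -0.013 to 0.014 in clone 15. Replicate 3 of clone 22 had medians between -0.259 and 0.232 on the other chromosomes, so its value on chromosome 8 is within its own scatter, while replicates 1 and 2 had their highest value there. Clone 17 had 0.175 to 0.180 on chromosome 8 and clone 42 had -0.168 to -0.129, against the same clone 15 mean. Chromosome 16 stood at 0.111 and 0.096 in replicates 1 and 2 of clone 22, but at -0.083 in replicate 3. On chromosome 16 clone 17 had 0.094 to 0.115 and clone 42 had 0.066 to 0.077, so its higher median against clone 15 was not particular to clone 22. When each chromosome was centred on its own median, an alternative chosen after seeing the data, 10 genes were called higher and 40 lower, of which 7 and 34 were among those called without centring. Copy number was not measured, and its part in these medians was not tested.

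**Figure D5:**
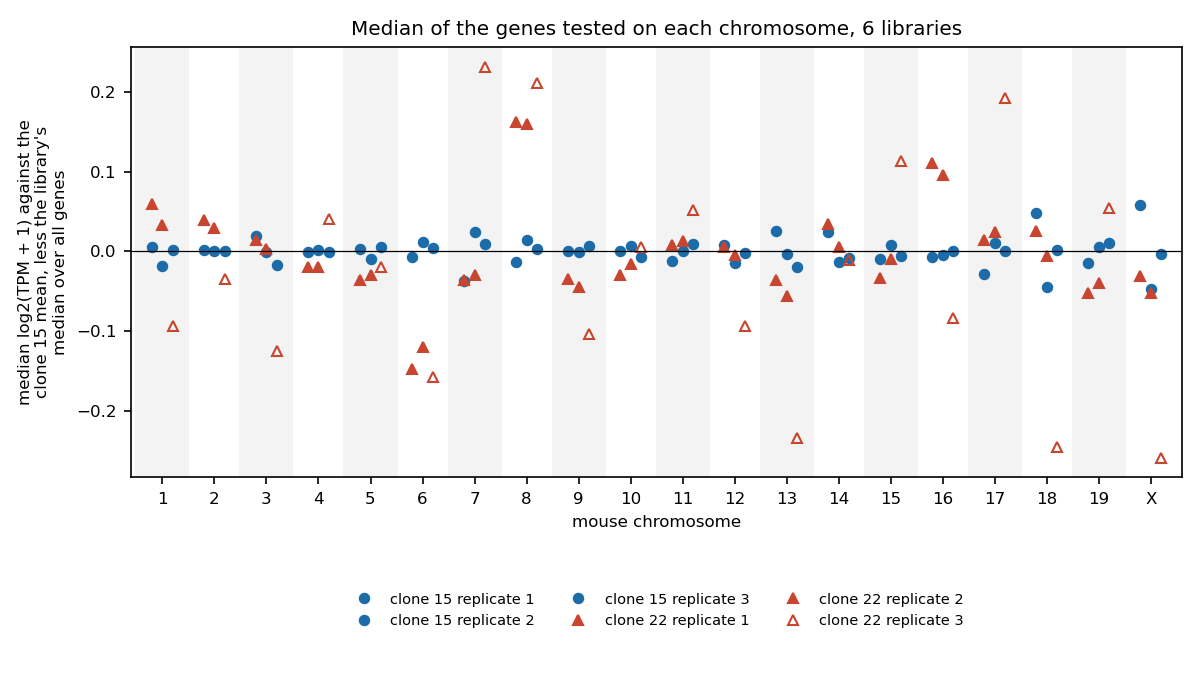
Symbols give, for each of the 6 libraries, the median over the genes of a chromosome of log2(TPM + 1) against the clone 15 mean, less the library's median over all genes. Replicates 1 and 2 of clone 22 (filled triangles) stand above 0 on chromosomes 8 and 16 and below 0 on chromosome 6, and replicate 3 (open triangles) scatters on most chromosomes.

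Genes seen in a single clone could escape the filter. At least 1 TPM in both replicates used of clone 22, and under 1 TPM in all of clone 15, was found for 38 genes, 14 of them also at 1 TPM or more in replicate 3 of clone 22. The reverse held for 98 genes, 87 of them also under 1 TPM in that replicate. Replicate 3 had 10760 genes at 1 TPM or more, against 11322 and 11293 in replicates 1 and 2. A value under 1 TPM there is thus a weak check, and the 14 and the 87 cannot be compared. Since clone 22 had 2 libraries and clone 15 had 3, the filter kept the 38 genes out of the test, and they are given as values. Without replicate 1 of clone 15 the numbers were 65 and 162. The highest by mean were the predicted genes Gm13577 and Gm9850, with 8.11 and 13.4 TPM and with 5.40 and 6.41 TPM, both listed at 0 in replicate 3. Next came Neto2, an accessory subunit of kainate receptors, with 3.66 and 4.06 TPM against 0.148 to 0.355 TPM in clone 15. Cd300lb, a receptor known from myeloid cells, had 1.92 and 3.03 TPM, Gm18113 had 1.83 and 2.97 TPM, and Has3, a hyaluronan synthase, had 2.35 and 2.07 TPM. Batf2, a leucine zipper factor, had 2.48 and 1.70 TPM against 0.797 to 0.967 TPM in clone 15, and Casd1, which acetylates sialic acids, had 1.83 and 2.26 TPM against 0.158 to 0.537 TPM. These levels are close to the limit of 1 TPM.

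The size of the difference was set beside that of the other pair of clones in 1 fit of 11 libraries and 11767 genes. Between clones 22 and 15, 807 genes were called, which is 6.86%, and between clones 42 and 17, 4887 genes, which is 41.5%. The median absolute difference was 0.169 in the first pair and 0.288 in the second. With replicates 1 and 2 of each clone only, 282 and 3343 genes were called, with replicate 3 of clone 22 included, 226 and 2031, and without replicate 1 of clone 15, chosen after seeing the data, 1094 and 5811. The first pair was thus closer in all 4 settings, and the difference of the counts was not tested. The second pair also differed in Mcu, at 113 to 122 against 10.5 to 12.3 TPM. Of the 807 genes, 494 were also called between clones 42 and 17, which is 61.2% of the first list and 10.1% of the second. Of the 48 genes called in 5 libraries, 32 were called between clones 42 and 17.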

How the data were processed

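PolyA RNA of line 2838 clones 15 and 22 was compared, 5 libraries in the main test. The authors deposited their values as TPM, in a table of 35642 symbols. Salmon, DESeq2 and the build mm10 are named in the submitters' processing notes. Versions and annotation are not given in the sources used here. TPM keeps no read depth, so depth is unknown and no counting interval was given.

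Genes with at least 1 TPM in 3 or more of the 5 libraries were tested as log2(TPM + 1) with limma 3.58.1 in R 4.3.3 (variance trend, two-sided, Benjamini-Hochberg over all 11335 genes, adjusted p under 0.05). Fold changes on this scale understate changes of low genes. The fit was tested on simulated data. Positions came from GENCODE M21 (mm10), matched for 98.2% of genes tested, and promoters from RefSeq. No columns were left unmapped. A few items, among them called genes, are not reported here.

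The libraries and the 36 gene lists (990 entries) were chosen with earlier results of these data known, and lists were described by counts and medians, without a set test. Named genes were the 15 largest called differences in each direction without overlap in 6 libraries and with a mean of at least 5 TPM, up to 4 called members of each list, the uniporter genes, 9 epithelial and mesenchymal markers, and the 8 highest genes of clone 22 alone. The remaining called genes, Sox9, Mt1, the regulators, and uncalled list members were named after their values were seen. Alternatives were a pseudocount of 0.1, other filters and scalings, no trend, a minimum log2 difference of 1, a replicate block, other sets of libraries and leaving out each library. Added after seeing the data were centring per chromosome, the exchange of clone 22 replicate 3 for clone 15 replicate 1, and the clone pairs without the latter.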

Additional observations from a re-analysis of the deposited data

How the results depend on the processing

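The counts of called genes, 10 higher and 38 lower in clone 22, changed with the libraries and with the estimate of the spread more than with the scale. Counts of genes higher ran from 0 to 108 and of genes lower from 0 to 96 when each library was left out in turn. With no filter on low values, which raised the genes tested to 17459, 1 was higher and 1 lower. No trend gave 17 and 59, a log2 difference of at least 1 gave 6 higher, and the spread of 11 libraries gave 487 and 317. Replicate 3 of clone 22 included gave 0 and 1 (limma, 233 higher and 486 lower at an unadjusted p under 0.05). With that library in and replicate 1 of clone 15 out, chosen after seeing the data, the counts were 0 and 0 (136 and 306 unadjusted). The cause was not tested. A pseudocount of 0.1, filters of 2 libraries or of a mean of 5 TPM, both other scalings (median-of-ratios, quantile), mitochondrial genes left out and centring per chromosome stayed within 1.5 times, at 9 to 15 higher and 33 to 44 lower.

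With a replicate block, 3 genes were higher and 11 lower, and with the replicate block and replicate 3 of clone 22 included, 0 and 0 (limma, 176 and 373 unadjusted). The labels do not say whether same-numbered libraries share more than a number, such as a culture, and this was not tested. Their deviations from the clone means correlated at 0.0163, 0.0454 and -0.128 across genes over 6 libraries. Replicate 3 of clone 22, which stood apart, enters the clone 22 mean in those values, so they cannot decide the question. In the 5 libraries of the test the 2 same-numbered pairs correlated at 0.138 and 0.181, and the crossed pairs at -0.138 and -0.181, where the deviations of the 2 clone 22 libraries mirror each other. Of the 48 calls, 10 were kept and 38 lost with the block.

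Over the 48 called genes, 928 values were computed in the alternatives. The call was kept in 507, lost in 421, and 0 changed sign. In many of these settings a sign could not change, since none of the 48 genes overlapped between the clones in the 5 libraries. In each setting that left out a library of clone 15, 41 of the 48 genes had a value, since 7 had passed the filter only through that clone. Called genes between clones 22 and 15 were 282 with replicates 1 and 2 of each clone and 226 with 12 libraries, against 807, and between clones 42 and 17 they were 2031 with 12 libraries, against 4887. Scaling moved the median of all genes by under 0.1, from 0.06 to 0.01 with median-of-ratios and quantile scaling. The 2 libraries of clone 22 limit what could be tested.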

Other observations

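No gene of the stress and signalling lists that follow passed the 5-library test, and the lists differed in how far they lay from all genes tested, of which 9.48% were higher and 5.88% lower at an unadjusted p under 0.05. Of 31 tested genes of the NRF2 antioxidant response, 4 were higher and 5 lower at an unadjusted p under 0.05 (limma), and their median difference was 0.05. With the spread of 11 libraries 4 were called higher and 5 lower, or 12.9% and 16.1%, against 4.3% and 2.8% of all genes. Of 30 genes of the integrated stress and unfolded protein response, 26 were positive with a median of 0.15 and none was called (6 higher and 0 lower unadjusted, and 3 higher with the spread of 11 libraries), and of 20 EGF ligands and receptors 18 were positive with a median of 0.22 and none was called (5 higher and 0 lower unadjusted, and 2 higher with the spread of 11 libraries). The 29 tested p53 targets and CDK inhibitors had a median of 0.15, the 22 YAP targets 0.06 and the 24 genes of TGF-beta and BMP signalling -0.02, each without a call (4, 2 and 2 higher and 3, 3 and 3 lower unadjusted). The 12 tested interferon-response genes had a median of -0.0024 and the 12 genes of MHC class I antigen presentation 0.06, again without a call (2 and 1 higher and 0 and 3 lower unadjusted). For all genes tested the median was 0.06.

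Gkn2, a gastric peptide, and Ctse, the protease cathepsin E, point in opposite directions within the gastric list, and both were noted after their values were seen. The mean of Gkn2 was 7.92 TPM in clone 15 and 2.13 TPM in clone 22 (adjusted p = 0.173), and that of Ctse was 101 and 169 TPM (adjusted p = 0.0556). Both were called with the spread of 11 libraries, with adjusted p of 0.0149 and 7.14e-04.

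Replicate 1 of clone 15 held values that neither clone repeated. The pseudogene Gm10925 stood at 6512 TPM there, while clone 15 had 319 and 363 TPM otherwise and clone 22 had 113 to 317 TPM. S100a7a, a calcium-binding protein of squamous epithelium, stood at 190 TPM there, against 15.0 and 15.7 TPM in the rest of clone 15 and 7.57 to 9.78 TPM in clone 22.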
